A study of Mus musculus with 7 samples.

Results

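Striatal projection neuron genes are described here by 8 genes fixed by name, which were the opioid and tachykinin precursors Penk, Pdyn and Tac1, the signalling genes Ppp1r1b, Adora2a and Rgs9, the sodium channel subunit gene Scn4b and the retinoic acid receptor gene Rarb. Every probe that the array platform's annotation names for one of them was taken where the deposited table gave it a value. This gave 10 of 11 probes and 6 of the 8 genes, out of 13304 probes and 9009 named genes in all. No probe in the annotation used here was named Penk or Adora2a, so these 2 genes were not analysed here. Pdyn had 2 probes with a value, Ppp1r1b 3, Rarb 2 of its 3, and Tac1, Rgs9 and Scn4b 1 each. The remaining Rarb probe was blank, and the 10 probes had values on all 7 arrays.

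The study measured brain RNA of female C57BL/6 mice, 5 weeks old, on 7 Illumina bead arrays. The control array held RNA of untreated mice, and 6 arrays held RNA of mice that received Ephedra herba, as an aqueous extract, by mouth each day. These 6 arrays were 50 and 1250 mg/kg after 1 day, after 3 days and after 10 days, with 1 array for each pair of dose and day and no replicate of any condition. The labels give neither the number of mice behind an array nor the part of the brain, and p-values measure only the spread between these arrays, which may be technical.

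Striatal projection neurons are the GABA neurons through which the striatum sends its output. They fall into a direct-pathway class, which carries the dopamine receptor Drd1 and makes dynorphin (Pdyn) and substance P (Tac1), and an indirect-pathway class, which carries Drd2 and the adenosine receptor Adora2a and makes enkephalin (Penk). Dopamine acts on both through cyclic AMP and protein kinase A, whose substrate DARPP-32 (Ppp1r1b) inhibits protein phosphatase 1 when phosphorylated. Ephedra alkaloids release catecholamines, and drugs of that kind are known to act on these neurons. None of the genes belongs to the striatum alone: Pdyn and Tac1, for example, are also made in the hippocampus, amygdala and hypothalamus.

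The bases before the start of transcription are shown for the 2 genes called in the comparisons below, Rgs9 and Scn4b, and for the 2 whose window held a searched motif, Tac1 and Rarb. Each window is the 250 bases before the start, 5′ to 3′, from RefSeq on build GRCm38.p6. Capitals mark motif matches.
Rgs9, chr11:109298182-109298431, minus strand: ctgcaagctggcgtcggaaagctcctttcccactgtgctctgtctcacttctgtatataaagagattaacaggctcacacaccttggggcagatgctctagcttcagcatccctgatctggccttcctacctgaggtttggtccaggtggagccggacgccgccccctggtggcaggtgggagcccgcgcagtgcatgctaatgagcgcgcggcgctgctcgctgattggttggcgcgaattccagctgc
Scn4b, chr9:45138374-45138623, plus strand: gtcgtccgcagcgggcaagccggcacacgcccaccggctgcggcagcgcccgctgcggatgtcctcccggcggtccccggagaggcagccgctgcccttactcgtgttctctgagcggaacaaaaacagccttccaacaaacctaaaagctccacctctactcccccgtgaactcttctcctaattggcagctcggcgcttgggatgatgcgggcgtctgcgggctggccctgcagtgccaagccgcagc
Tac1, chr6:7554811-7555060, plus strand: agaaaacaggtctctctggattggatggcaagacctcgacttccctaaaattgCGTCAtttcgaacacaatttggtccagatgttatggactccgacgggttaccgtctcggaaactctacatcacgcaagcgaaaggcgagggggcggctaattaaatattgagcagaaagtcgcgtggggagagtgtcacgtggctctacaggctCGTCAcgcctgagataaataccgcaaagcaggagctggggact
Rarb, chr14:16575477-16575726, minus strand: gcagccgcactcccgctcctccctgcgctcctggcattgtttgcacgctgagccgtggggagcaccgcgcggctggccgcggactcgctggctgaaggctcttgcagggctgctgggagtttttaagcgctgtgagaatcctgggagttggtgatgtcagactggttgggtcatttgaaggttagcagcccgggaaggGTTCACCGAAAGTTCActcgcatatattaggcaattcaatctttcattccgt
Searched on both strands were the cyclic AMP response element TGACGTCA, its short form TGACG, which lies within it, the AP-1 element TGANTCA, and the direct repeat of GTTCA with any 6 letters between its copies, of the kind bound by retinoic acid receptors. The RefSeq table held 6 windows for 5 of the genes (Pdyn 2). The short form occurred 2 times in the Tac1 window, as CGTCA on the strand shown, at -197 to -193 and at -43 to -39 from the start, and in 17.8% of 32851 windows of this length. The repeat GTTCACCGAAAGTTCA stood at -52 to -37 of Rarb, a gene known to be induced by its own ligand, and a match occurred in 0.067% of all windows. TGACGTCA (1.55% of windows) and TGANTCA (6.75%) were in none of the 6. These matches are a description of the letters, and no binding was measured.

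Values are log2 intensities after quantile normalization, so a difference of 1 is a doubling. None of the sources used here states the log base, which was read as 2 from the range of the deposited values, and each fold below depends on it. The arrays correlated with the control across genes at 0.982 to 0.996, lowest for day 3. The 2 day 3 arrays stood apart: 7% and 8.2% of genes there differed from the control at least 1.5-fold. After 1 day these shares were 0.311% and 1.04%, and after 10 days 1.39% and 2.09%, the lower dose first. Before quantile normalization the median change of all genes from the control was -0.13 and -0.097 on the day 3 arrays, and after it -0.028 and -0.033. Markers of other tissues moved between arrays. The median difference of 9 cerebellar markers from the control ran from -0.16 (day 1, lower dose) to 1.98 (day 10, higher dose). That of 8 liver genes ran from -0.25 (day 3, lower dose) to 2.48 (day 1, higher dose), and that of 2 pituitary genes from -1.24 to 3.25. All 6 treated arrays had a negative median for 6 hypothalamic markers, between -0.15 and -0.82. Tissue pieces that differ in content, fewer neurons of a type and less RNA per neuron cannot be told apart in such samples.

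Pdyn, the precursor of the dynorphins, which are ligands of the kappa opioid receptor, was at 4.44 in the control. Given as 50 and then 1250 mg/kg, here and for every gene below, it was 4.75 and 4.43 after 1 day, 4.23 and 4.53 after 3 days, and 4.64 and 4.45 after 10 days. The array of day 3 at 50 mg/kg was lowest and that of day 1 at 50 mg/kg highest, and the control lay among the treated arrays. At 50 mg/kg the gene was below the control on day 3 alone, and at 1250 mg/kg its differences from the control lay between -0.013 and 0.082. The second, dimmer Pdyn probe differed from the control by 0.13 and -0.069 after 1 day, by -0.13 and 0.13 after 3 days, and by -0.12 and -0.060 after 10 days, so that the probes had opposite signs on both arrays of day 10, where the brighter one was at 0.20 and 0.0052.

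Tac1, the precursor of substance P and neurokinin A, was the 1 gene of the 6 that lay below the control on every treated array. Its level was 4.35 in the control, 4.04 and 4.09 after 1 day, 3.81 and 4.02 after 3 days, and 4.18 and 4.06 after 10 days. The control did not overlap the treated arrays, and the largest gap was at 50 mg/kg on day 3, with a difference of -0.54. Of all genes, 13% were below the control on all 6 treated arrays.

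Ppp1r1b was at 5.58 in the control and at 5.80 and 5.82 after 1 day, 5.35 and 5.58 after 3 days, and 5.65 and 5.55 after 10 days. The day 1 arrays were the highest at both doses, and day 3 at 50 mg/kg was the lowest. Its 3 probes all had their lowest level on a day 3 array. The second probe differed from the control by -0.17 and -0.19 on day 3, and the dimmest by -0.36 and -0.45, beside -0.22 and 0.0045 for the brightest. On day 1 at 1250 mg/kg the probes did not share a direction, at 0.24, 0.28 and -0.13.

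Rgs9, a regulator of G protein signalling that speeds the inactivation of Gi and Go proteins behind dopamine and opioid receptors, was at 5.09 in the control, 5.09 and 5.27 after 1 day, 4.58 and 4.65 after 3 days, and 5.23 and 4.75 after 10 days. Both day 3 arrays lay below the other 5, and day 10 at 1250 mg/kg was the next lowest. Its range over the 7 arrays, 0.69, was the widest of the 6 genes and wider than that of 86.9% of all genes.

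Scn4b, an auxiliary subunit of voltage-gated sodium channels, was at 5.33 in the control, 5.38 and 5.17 after 1 day, 4.98 and 4.85 after 3 days, and 5.25 and 5.16 after 10 days. Both day 3 arrays again lay below the other 5. It was the only gene of the 6 that was lower at 1250 than at 50 mg/kg on each day, by -0.20, -0.13 and -0.088 on days 1, 3 and 10, and 12.8% of all genes did the same. In the deposited values its levels on day 3 were nearly equal, at 4.808 and 4.809, so it was lower at 1250 mg/kg on days 1 and 10 only.

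Rarb, a nuclear receptor for retinoic acid, ran the other way. It was at 2.06 in the control, 2.37 and 2.36 after 1 day, 2.07 and 2.49 after 3 days, and 2.12 and 2.12 after 10 days, above the control on all 6 treated arrays, as were 11.1% of all genes. This depended on the scaling. In the deposited values Rarb was below the control on day 3 at 50 mg/kg, at 2.03 beside 2.09, and it was also below it there after median scaling. After quantile normalization it was within 0.065 of the control on both day 10 arrays and on the lower-dose array of day 3. Its second probe was also above the control on all 6 arrays, by 0.25 and 0.19 after 1 day, 0.49 and 0.59 after 3 days, and 0.20 and 0.052 after 10 days, so that day 3 at 50 mg/kg was near the control by one probe and well above it by the other.

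**Figure D1:**
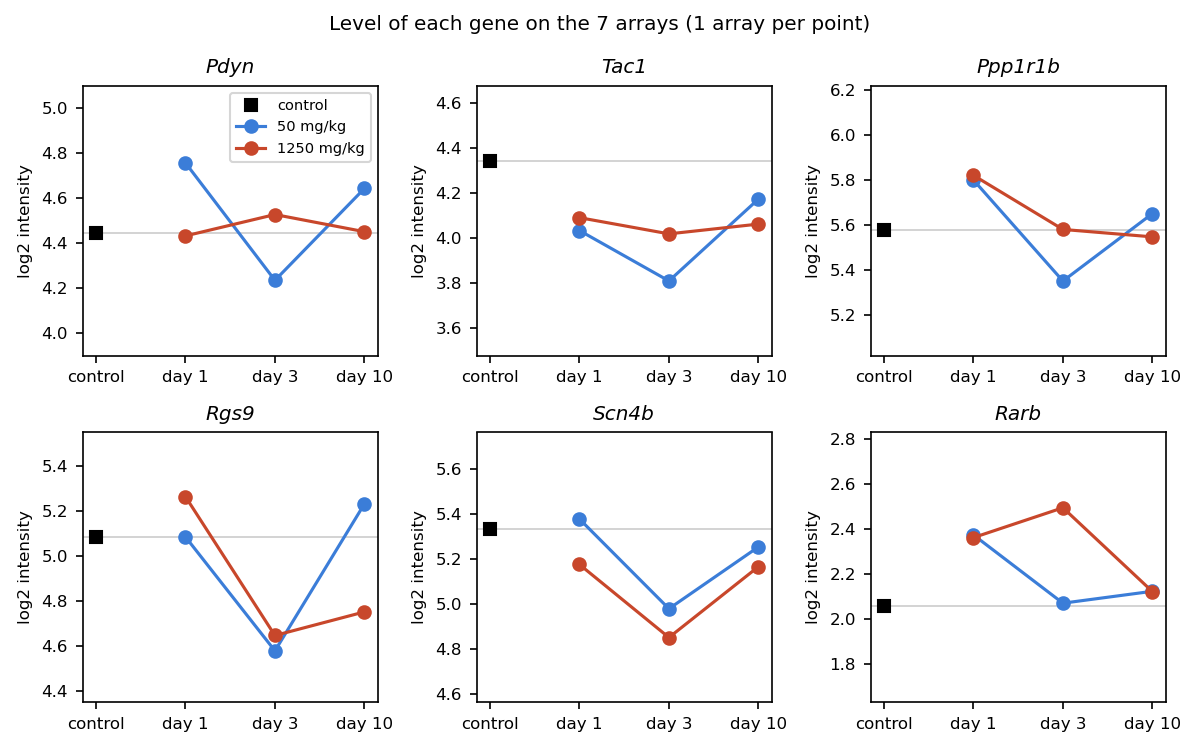
Level of each of the 6 genes on the 7 arrays, as quantile-normalized log2 intensity on the vertical axis against the control and the 3 days on the horizontal axis. Squares are the control, circles the treated arrays by dose, and each point is 1 array with no replicate. Rgs9 and Scn4b are lowest on both day 3 arrays, Tac1 lies below the control throughout and Rarb above it.

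None of the 36 differences of these 6 genes from the control reached 1.5-fold on a single array, the largest being that of Tac1 at 1.45-fold. In the deposited values, before quantile normalization, 5 did, all on day 3 and all lower: Tac1 at 50 mg/kg (-0.75), Rgs9 at both doses (-0.76 and -0.60) and Scn4b at both doses (-0.64 and -0.64). After median scaling 3 did, again on day 3 and lower. With the next brightest probe of Pdyn, Ppp1r1b and Rarb 1 did, which was Rarb on day 3 at 1250 mg/kg, higher by 0.59.

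**Figure D2:**
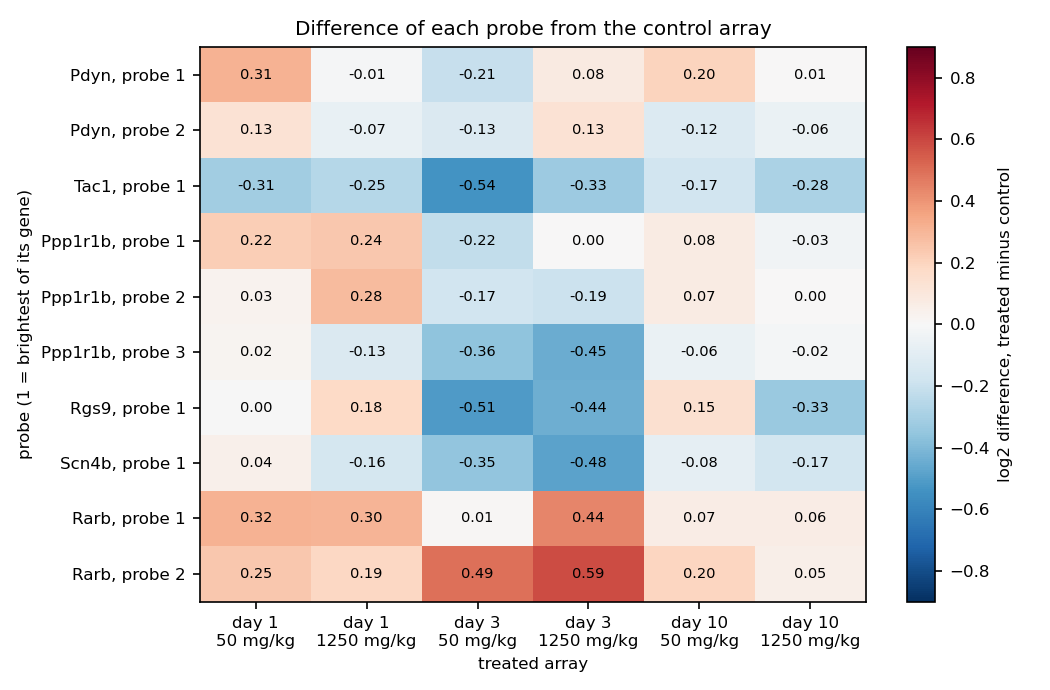
Difference of each of the 10 probes from the control, as log2 treated minus control, with treated arrays in columns and probes in rows, numbered by brightness within a gene. The 2 day 3 columns hold negative values for Tac1, Rgs9, Scn4b and the dimmer Ppp1r1b probes and positive values for both Rarb probes.

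The comparison of the days put the 2 day 3 arrays against the 4 arrays of days 1 and 10. Rgs9 fell by 0.47 ± 0.12 (standard error of the limma model, 2 arrays against 4, adjusted p = 0.0128), which is 1.39-fold, and Scn4b fell by 0.33 ± 0.094 (adjusted p = 0.0231), or 1.26-fold. Ppp1r1b was at -0.24 ± 0.098 (adjusted p = 0.101), Pdyn at -0.19 ± 0.12 (adjusted p = 0.283), Tac1 at -0.18 ± 0.10 (adjusted p = 0.249) and Rarb at 0.037 ± 0.11 (adjusted p = 0.855), and these 4 did not pass. So 2 of 6 were called, both lower, where 8.46% of all genes were called lower and 10.1% higher, 18.6% together. The median of the 6 was -0.21 and that of all genes -0.037, and 5 of the 6 were below 0, as were 57% of all genes. In the same comparison all 8 liver genes were lower, 7 of them called (median -1.40), 3 of 6 hypothalamic markers were called lower (-0.26), 6 of 9 cerebellar markers were higher (0.11), and 11 markers of cortex and hippocampus had a median of -0.043. The part of these in the result was not tested. For 5 of the 6 the lowest of the 7 arrays was a day 3 array, as for 37.4% of all genes. For 3 of the 6, Tac1, Rgs9 and Scn4b, both day 3 arrays lay below the other 5, beside 20.2% of all genes.

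Rgs9 and Scn4b passed in all 9 alternatives, Rgs9 between -0.60 and -0.38 and Scn4b between -0.47 and -0.29. With every probe fitted on its own, adjusted over 13304 probes with limma, the dimmest Ppp1r1b probe passed (-0.36 ± 0.11, adjusted p = 0.0215) and the other 2 did not (adjusted p = 0.0801 and 0.0958). The second Rarb probe passed as higher (0.37 ± 0.11, adjusted p = 0.0181) although the brighter one did not (adjusted p = 0.855). Ppp1r1b passed at gene level in the deposited values, after median scaling, as the mean of its probes and without day 10. Of all genes called for day 3, 54.5% were higher, but 37.4% in the deposited values and 42.5% after median scaling, so the split of directions over all genes depends on the scaling.

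**Figure D3:**
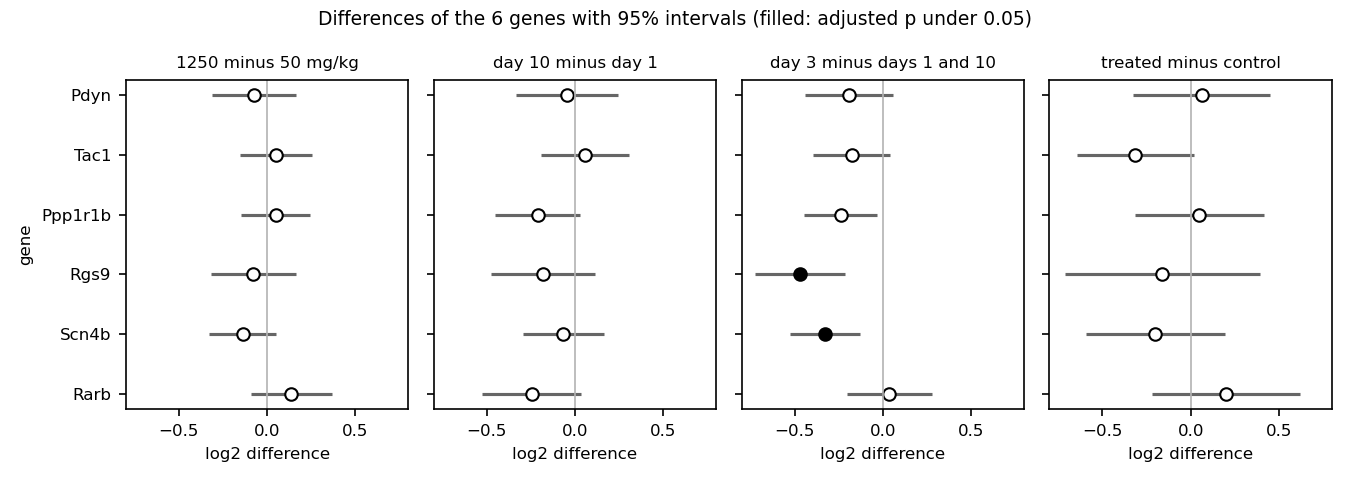
Difference of each gene in the 4 limma comparisons on the log2 scale, with 95% intervals of the model. Filled points have an adjusted p under 0.05, which holds for Rgs9 and Scn4b in the day 3 comparison, where the points are at -0.47 and -0.33.

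The dose comparison set 3 arrays at 1250 mg/kg against 3 at 50 mg/kg with the day held as a block. None of the 6 genes was called or had an unadjusted p under 0.05 in limma, and 0.144% of all genes were called. The differences ran from -0.14 ± 0.088 for Scn4b (adjusted p = 0.925) to 0.14 ± 0.11 for Rarb (adjusted p = 0.925). The 95% interval of the model was widest for Rgs9, from -0.32 to 0.16, so a dose difference anywhere in that range remained possible with 3 days. After quantile normalization the direction differed between days for every member but Scn4b. Rgs9 differed by 0.18 on day 1 and by -0.48 on day 10, and Pdyn by -0.32 on day 1, 0.29 on day 3 and -0.19 on day 10.

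Within single days the signs were as follows. On day 3, 5 of 6 were higher at the higher dose, Scn4b being the exception, and the median was 0.22, beside 49.2% of all genes. In the deposited values all 6 were higher that day, Scn4b barely so. On day 10 all 6 were lower at 1250 mg/kg, with a median of -0.11, beside 50.4% of all genes. These are differences of 1 array from 1 array and have no test. The largest on day 10 was that of Rgs9 (-0.48), followed by Pdyn (-0.19), Tac1 (-0.11), Ppp1r1b (-0.10), Scn4b (-0.088) and Rarb (-0.0014). These signs are those of each gene's brightest probe. On day 10 the second Pdyn probe (1.69 and 1.75) and the dimmest Ppp1r1b probe (1.02 and 1.06) were higher at 1250 mg/kg. The second Ppp1r1b and Rarb probes were lower. On day 3 the 2 dimmer Ppp1r1b probes were lower at 1250 mg/kg (1.71 and 1.69, 0.72 and 0.64). The second Pdyn and Rarb probes were higher.

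Day 10 was compared with day 1, 2 arrays each with the dose as a block. None of the 6 was called or had an unadjusted p under 0.05 in limma, and 1.93% of all genes were called, 1.4% higher and 0.533% lower. By sign 5 of the 6 were lower, as were 52.6% of all genes. Rarb (-0.25 ± 0.13, adjusted p = 0.353) and Ppp1r1b (-0.21 ± 0.11, adjusted p = 0.348) had the largest differences, and Tac1 was at 0.056 ± 0.12 (adjusted p = 0.855). Ppp1r1b passed in the deposited values (-0.48, adjusted p = 0.0485).

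Treatment as such set 6 arrays against the single control. No member and no other gene was called with limma (0% of all genes), while 162 genes and 0 members had an unadjusted p under 0.05. Tac1 had the largest difference of the 6, -0.31 ± 0.15, lower on 6 of 6 arrays, with an unadjusted p of 0.0601 and an adjusted p = 0.999. All 6 differences of a gene use the same control array, so their shared sign is not 6 separate observations.

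Other genes of striatal neurons, from a list of 42, were measured for 30. None was called with limma by dose, on day 10 or against the control, where 2, 10 and 1 had an unadjusted p under 0.05. Among all 9009 genes 479, 1616 and 162 did, in the same order. On day 10, 25 of the 30 were below day 1, with a median of -0.21 beside -0.012 for all genes, of which 52.6% were below. Lists of other brain regions also differed there: 9 of 11 cortex and hippocampus markers were below day 1 (median -0.18), as were 6 of 8 olfactory bulb markers (-0.33), while 9 of 9 cerebellar markers were above it (1.47), 7 of them called. The lower values were therefore not seen in striatal genes alone, and the part of tissue content in them was not tested. The dopamine receptor genes that mark the indirect and direct pathways were at -0.43 ± 0.14 (Drd2, adjusted p = 0.112) and -0.31 ± 0.13 (Drd1, adjusted p = 0.224), and Gpr6, an orphan receptor of indirect-pathway neurons, was at -0.43 ± 0.13 (adjusted p = 0.0902). Highest were the transcription factor genes Ebf1 (0.27 ± 0.13, adjusted p = 0.280) and Meis2 (0.25 ± 0.12, adjusted p = 0.311). In the deposited values 26 of 30 were below and 3 were called lower. The median of all genes there was -0.082, 22 of the 30 lay below that median, and 336 of all 9009 genes were called lower. After median scaling 22 were below and 2 were called lower, with a median of all genes of -0.046 and 266 of all 9009 genes called lower.

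Set against the control, the low values of day 10 came mostly from 1250 mg/kg. There 24 of the 30 were below the control, with a median of -0.25, beside 17 of 30 and -0.029 at 50 mg/kg. The medians of all genes were -0.0079 at 1250 mg/kg and -0.0039 at 50 mg/kg. At 1250 mg/kg the count was also 24 in the deposited values and after median scaling. At 50 mg/kg it was 21 in the deposited values and 20 after median scaling. For cortex and hippocampus 9 of 11 markers were below the control at either dose, with medians of -0.17 at 50 mg/kg and -0.18 at 1250 mg/kg. Compared within day 10, 27 of the 30 were lower at 1250 than at 50 mg/kg, with a median of -0.21, beside 50.4% of all genes. The count was also 27 in the deposited values (median -0.24) and after median scaling (-0.22). The exceptions, named after their values were seen, were Gucy1b1 (0.25), Gnal (0.19) and Ebf1 (0.16). Drd1 was at 3.29 and 3.00 and Drd2 at 2.22 and 1.98 at 50 and 1250 mg/kg. On day 1 the same list leaned the other way, with 19 of 30 higher at the higher dose and a median of 0.080, beside -0.0026 for all genes. The day 1 arrays were also above the control, for 20 of 30 at 50 mg/kg (median 0.094) and 19 of 30 at 1250 mg/kg (0.14). The medians of all genes there were 0.0093 and 0.0032. The gap of day 10 from day 1 therefore holds high day 1 values as well as low day 10 values. On the same day 10 pair, 9 of 9 cerebellar markers were higher at 1250 mg/kg, their median being 1.1, as were 8 of 8 liver genes (1.17), while 6 of 11 cortex and hippocampus markers were lower (-0.025). The part of these in the striatal values was not tested.

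On day 3, 4 of the 30 were called in the limma fit and 10.1% of all genes were called higher, so this count is near the background. All 4 were higher: the cannabinoid receptor gene Cnr1 (0.88 ± 0.11, adjusted p = 4.93e-05), the transcriptional regulator gene Id4 (0.84 ± 0.12, adjusted p = 0.00013), and the phosphodiesterase genes Pde10a (0.72 ± 0.12, adjusted p = 0.000878) and Pde7b (0.48 ± 0.12, adjusted p = 0.00969), which encode enzymes that break down cyclic nucleotides. Pde10a was at 1.97 in the control, 2.23 and 2.40 after 1 day, 2.76 and 2.90 after 3 days, and 2.12 and 1.69 after 10 days. Its levels on both day 3 arrays were above those on the other 5, as for 15.9% of all genes. Those of Rgs9 and Scn4b were below, as for 20.2% of all genes. Cnr1, Id4 and Pde7b were dim, at 0.88, 0.97 and 0.35 in the control, where the median of all probes was 1.93. The list's median was -0.048, close to the -0.037 of all genes, and 0 were called lower.

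**Figure D4:**
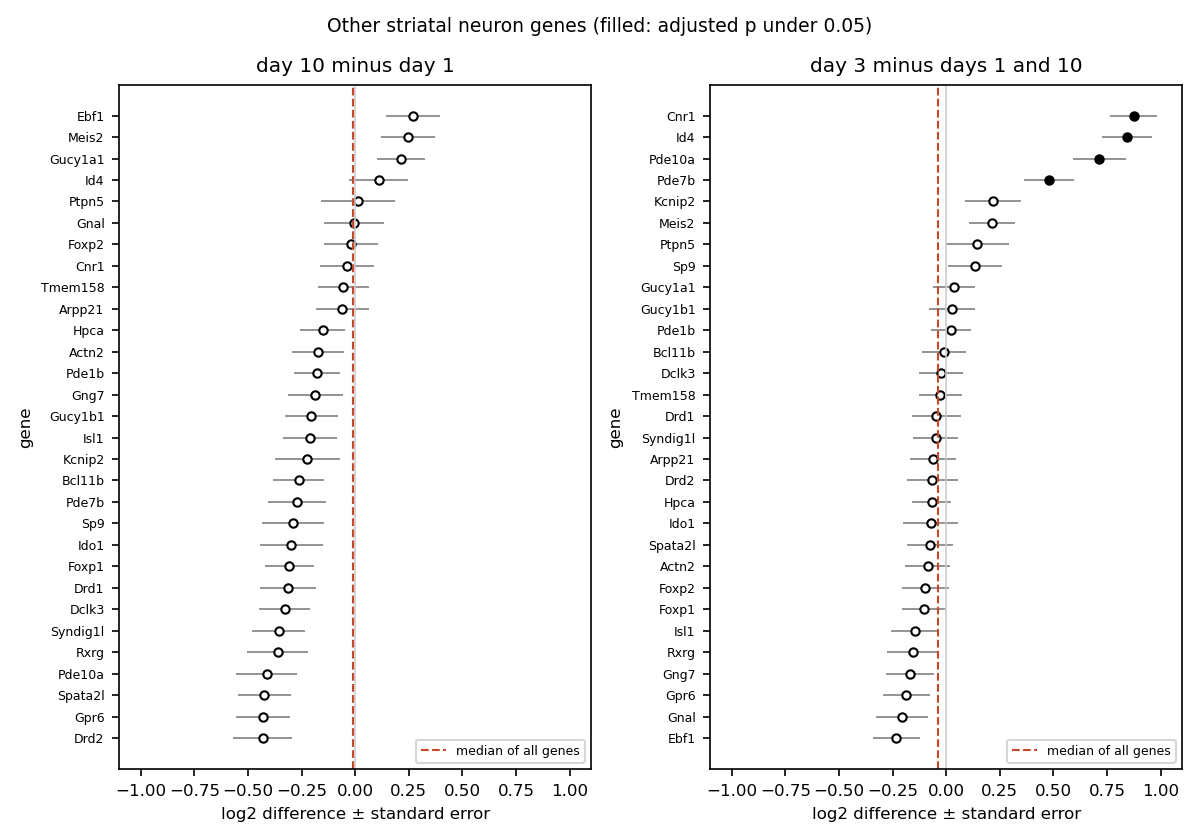
Log2 difference with its standard error for the 30 other striatal neuron genes, day 10 minus day 1 on the left and day 3 minus days 1 and 10 on the right, each sorted by difference. Filled points have an adjusted p under 0.05, and the dashed line is the median of all genes. On the left 25 of 30 lie below 0 and none is filled, and on the right 4 are filled, all above 0.

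Partners of the members' proteins were called in both directions on day 3. Of 16 genes for kinase, phosphatase and G protein partners, 3 were called higher and 1 lower, where 10.1% of all genes were called higher and 8.46% lower. Gnb5, the G protein subunit that pairs with the Rgs9 protein, fell by 0.50 ± 0.10 (adjusted p = 0.00283), from 4.96 in the control and 5.05 and 5.43 on day 1 to 4.43 and 4.74 on day 3, and was at 4.89 and 4.94 on day 10. Rgs7bp, which anchors this complex at the membrane, rose by 0.41 ± 0.092 (adjusted p = 0.00585), and Gnao1, which encodes the Go subunit, rose by 0.42 ± 0.096 (adjusted p = 0.00566). Ppp1cb, a catalytic subunit of protein phosphatase 1, rose by 0.44 ± 0.14 (adjusted p = 0.0420). Gnb5 lost its call as the mean of its probes (-0.18, adjusted p = 0.196), Gnao1, Rgs7bp and Ppp1cb in the deposited and median-scaled values, Rgs7bp also without day 1 (0.22), Gnao1 without day 10 (0.30) and Ppp1cb with no dose block.

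Among 9 measured relatives of the members, 3 were called higher and 2 lower on day 3, with the same 10.1% and 8.46% of all genes as background. Scn2b, another auxiliary sodium channel subunit, fell by 0.50 ± 0.096 (adjusted p = 0.00204) and did so in all alternatives, beside the fall of Scn4b. Scn3b (0.39 ± 0.13, adjusted p = 0.0478) and the pore subunit gene Scn1a (0.35 ± 0.096, adjusted p = 0.0189) rose, but both calls were lost in the deposited and median-scaled values. Scn1a also lost it without day 1 (0.27), and Scn3b without day 10 (0.15), as the mean of its probes and with no dose block. Rxrb, a partner receptor of Rarb, fell by 0.41 ± 0.10 (adjusted p = 0.0107), a call lost as the mean of its probes (-0.13). Aldh1a1, which makes retinoic acid, rose by 1.29 ± 0.12 (adjusted p = 2.88e-06), from 0.30 in the control to 1.91 and 1.79 on day 3, and was at 0.63 and 0.92 on day 10. Aldh1a1 was dim in the control, where the median of all probes was 1.93, and it was not among the brighter 6652 probes.

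Receptors of the peptides gave 4 measured genes of 7, with none called and none at an unadjusted p under 0.05 in limma. Oprk1, the kappa receptor for dynorphin, was at -0.074 ± 0.11 on day 3 (adjusted p = 0.674) and 0.22 ± 0.12 on day 10 against day 1 (adjusted p = 0.360). Of 12 genes for peptide processing and secretory granules, 8 were measured and none was called, 2 having an unadjusted p under 0.05 in either day comparison and 0 in the others. Among all 9009 genes 1616 had such a limma p for day 10 against day 1 and 2931 for day 3. Chga, a granule protein, was lowest in both day comparisons, at -0.26 ± 0.10 (adjusted p = 0.0852) on day 3 and -0.38 ± 0.12 (adjusted p = 0.0971) on day 10 against day 1. Of 4 other precursors (Pomc, Pnoc, Tac2 and Tac4), none was measured. Among 8 of 10 markers of striatal interneurons, 1 was called higher on day 3 and 0 lower, where 10.1% of all genes were called higher and 8.46% lower. It was Slc5a7, the choline transporter of cholinergic neurons, which rose by 0.52 ± 0.11 (limma adjusted p = 0.00321), a call lost without day 1 (0.33, adjusted p = 0.0787). Slc5a7 was dim, at 0.26 in the control. The cholinergic genes Chat (0.23 ± 0.11, adjusted p = 0.163) and Slc18a3 (0.11 ± 0.11, adjusted p = 0.512) were not called.

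The mean of the 6 members, each centred on its own mean, was 0.052 in the control, 0.15 and 0.10 after 1 day, -0.25 and -0.069 after 3 days, and 0.090 and -0.072 after 10 days. The 5 genes most like it over the 7 arrays were Kdm5b, a histone demethylase gene, Mapk11, a p38 kinase gene, Polr1e, a subunit gene of RNA polymerase I, Ppil2 and Birc5, with Pearson correlations from 0.978 to 0.970. These are the highest of 9003 genes, 85 of which exceeded 0.9, over 7 arrays that share days, and they are given as a description only.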

How the data were processed

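Brain RNA was measured on 7 Illumina arrays, 1 per condition. The authors deposited log intensities, read here as log2, for 13304 of 25697 probes and left the rest blank, with background step, scaling, software and log base not given in the sources used here. A second table of intensities was not used, because its 7 columns match no sample label. Symbols were brought up to date with a RefSeq gene table (GRCm38.p6), matched on Entrez numbers: 12150 probes had 1 symbol, 0 had several and 1154 are unnamed here. Values were quantile normalized and fitted with limma 3.58.1 in R 4.3.3 (lmFit, eBayes with intensity trend, Benjamini-Hochberg over all genes, threshold 0.05), using each gene's probe with the highest mean. The day and dose models had 2 residual and 14.1 prior degrees of freedom, and the treatment model 5 and 5.74, so the errors rest largely on a variance shared by all genes. A dose effect that varies by day enters the error of the dose model. The rule for named genes was the measured members and, from the other lists, every called gene, otherwise the highest and lowest. Called markers of other tissues are given as counts only, not every highest and lowest gene is printed, and Drd1 was added for its role. The members and lists were chosen with earlier results of these data known. The number of arrays limits the precision. Alternatives were other scalings, the brighter 6652 probes, no trend, mean of probes, no block, days left out and every probe fitted, the last added after seeing the data.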

Additional observations from a re-analysis of the deposited data

How the results depend on the processing

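No paired analysis was possible because each condition has 1 array and the labels give no replicate numbers, and the day and dose blocks hold conditions, not replicate pairs. The call of Rgs9 and Scn4b on day 3 was kept in all alternatives run, and no member was called by dose or against the control in any. For day 10 against day 1 the count of called members went from 0 to 1 (Ppp1r1b) in the deposited values. For day 3 it went from 2 to 3, again with Ppp1r1b, in the deposited values, with median scaling, as the mean of probes and without day 10. Member and array pairs past 1.5-fold were 0, but 5 as deposited, 3 with median scaling and 1 with the next brightest probes. Over all genes, those higher at 1250 mg/kg were 13, but 2 among the brighter 6652 probes, 0 as the mean of probes, 0 with no day block and 7 to 39 with a day left out, when 0 to 6 were lower. For day 10 against day 1, 126 were higher and 48 lower, but 336 lower in the deposited values, 266 lower after median scaling, 79 and 30 as the mean of probes, and 212 and 101 without the day 3 arrays. For day 3, 914 were higher and 762 lower, but 1252 lower in the deposited values and 501 higher among the brighter probes, which are fewer. Against the control 0 to 1 were called lower with a day left out. With a day left out, dose differences that changed sign ran from -0.26 to 0.050 for Pdyn, -0.027 to 0.13 for Tac1, -0.041 to 0.13 for Ppp1r1b, -0.21 to 0.12 for Rgs9 and -0.0067 to 0.21 for Rarb. Tac1 on day 10 against day 1 turned to -0.11 in the deposited values and -0.074 after median scaling. Rarb on day 3 turned to -0.0045 in the deposited values and ran from -0.085 to 0.16 with a day left out. Against the control, Pdyn turned to -0.050 as deposited and to -0.016 with median scaling, and Ppp1r1b to -0.073, -0.039 and, as the mean of probes, -0.038, and ran from -0.043 to 0.13 with a day left out. None of these values that changed sign passed the test. The cause of these changes was not tested. Signal over background could not be judged, since the background step is unknown.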
